A study of Homo sapiens with 6 samples.

Results

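ATM, ATR and the checkpoint kinases are described here as 9 genes of the 17841 that gave a value: the kinases ATM, ATR and PRKDC, the ATR partner ATRIP, the mediators TOPBP1, CLSPN and MDC1, and the checkpoint kinases CHEK1 and CHEK2. Members were found as the 381 probe sets whose only gene symbol in the platform annotation was one of these 9, among 357604 probe sets with 1 symbol. The members were chosen with earlier results of these data known. Of the 381 probe sets, 346 had a mean above the filter on low values and were used. RNA came from HCT116, a line grown from a human colorectal carcinoma and long in use, which the titles give as HCT116 +/+ with no gene named for that genotype, and was measured on 6 Affymetrix Human Exon 1.0 ST arrays. Cells had received Nutlin-3 (2 arrays, Nutlin 3R in the sample titles), 5FU (2 arrays, 5-fluorouracil) or the control treatment (2 arrays, none in the labels and DMSO in the design text), each for 12 h. No source used here gives a dose, and all groups are the same line, so nothing here speaks for other cells. Whether the replicates of a group were grown separately is not in the labels, so p-values cover the spread between these arrays alone, and that spread may be technical. The arrays read RNA from whole cultures, in which fewer cells and less RNA per cell cannot be told apart.

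ATM responds to DNA double-strand breaks, ATR with its partner ATRIP to single-stranded DNA at stalled replication forks, and PRKDC, the catalytic subunit of DNA-PK, acts in the joining of broken ends. TOPBP1 activates ATR, claspin (CLSPN) brings CHEK1 to ATR, and MDC1 binds phosphorylated histone H2AX and holds ATM signalling at breaks. CHEK1 acts mainly below ATR and CHEK2 mainly below ATM. Both phosphorylate CDC25 phosphatases, and the kinases above them phosphorylate p53, which Nutlin-3 stabilises by a different route, blocking its binding to MDM2. 5FU is an antimetabolite that disturbs thymidylate and RNA synthesis. The study treated ATM as a gene whose loss is synthetic lethal with Nutlin-3.

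Values are RMA log2 expression values, and a gene's value on an array is the mean of its used probe sets. Differences between groups are on the log2 scale with 95% intervals from limma, and called genes are those with an adjusted p below 0.05 (Benjamini-Hochberg, over all 17841 genes). In all, 217 genes (1.22%) were called between Nutlin-3 and control, 80 (0.448%) between 5FU and control, and 113 (0.633%) between Nutlin-3 and 5FU. Any 2 of these comparisons share a group: the first 2 the control arrays, the last 2 the 5FU arrays, and the other pair the Nutlin-3 arrays. A fall with Nutlin-3 against both control and 5FU therefore rests on the same Nutlin-3 arrays. A list of 6 p53 target genes (CDKN1A, MDM2, TP53I3, GDF15, BTG2 and FAS) was read as a check of the treatments. It was chosen with earlier results of these data known, so it was not an independent check. All 6 were called higher with both drugs, where 0.359% and 0.331% of all genes were called higher. Their medians were 1.98 for Nutlin-3 and 1.96 for 5FU. Of the 5 recomputed with 1 array left out (all but BTG2), with Nutlin-3 the FAS call was lost without any 1 of the 4 Nutlin-3 and control arrays (adjusted p = 0.0553 to 0.0612) and that of MDM2 without control replicate 1 (0.0651). With 5FU the calls of CDKN1A, FAS and MDM2 were lost without any 1 of the 4 5FU and control arrays (adjusted p = 0.0508 to 0.236), and those of GDF15 and TP53I3 without either 5FU array (0.0524 to 0.0676). FAS was also lost with both drugs when the median of its probe sets made the value (adjusted p = 0.234 with Nutlin-3 and 0.0590 with 5FU). All 12 colonic epithelial markers gave a value, with a mean level per array of 8.03 to 8.08 in Nutlin-3, 8.10 to 8.12 in 5FU and 7.98 to 8.01 in control, and KRT8 was the highest. The mean of the 8 fibroblast markers with a value was 6.37 to 6.41, 6.35 to 6.41 and 6.28 to 6.47 in the same 3 groups, and that of 7 blood markers was 6.37 to 6.59, 6.21 to 6.36 and 6.25 to 6.46. No marker of these lists was called in any comparison. Replicates of a group correlated at 0.963 to 0.981 across genes, which are not independent replicates.

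With Nutlin-3 CLSPN was called lower, and 3 further members, CHEK1, TOPBP1 and MDC1, lay 1.71-fold to 2.34-fold below control without passing the adjusted test. ATM, ATR, ATRIP and PRKDC differed from control by at most 0.14 on the log2 scale. With 5FU no member was called. Between Nutlin-3 and control 1 of 9 members was called lower, against 0.858% of all genes called lower. All 9 differences were below 0, against 49.9% of all genes, but those of ATM, ATR and PRKDC changed sign when single arrays were left out. At an unadjusted p below 0.05, 4 of 9 were lower, against 6.23% of all genes, and in 6 of 9 both Nutlin-3 arrays lay below both control arrays, against 18% of all genes. The median difference of the members was -0.50, beside a median of all genes within 0.01 of 0. ATRIP, CHEK1, CLSPN, TOPBP1 and MDC1 had both Nutlin-3 arrays below all 4 other arrays, as had 10.4% of all genes. Because the members were chosen with earlier results known, these counts describe them and are no test of the set. An exact permutation test of 2 arrays against 2 cannot go below p = 0.333, so single members were tested only in the model across all genes.

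**Figure D1:**
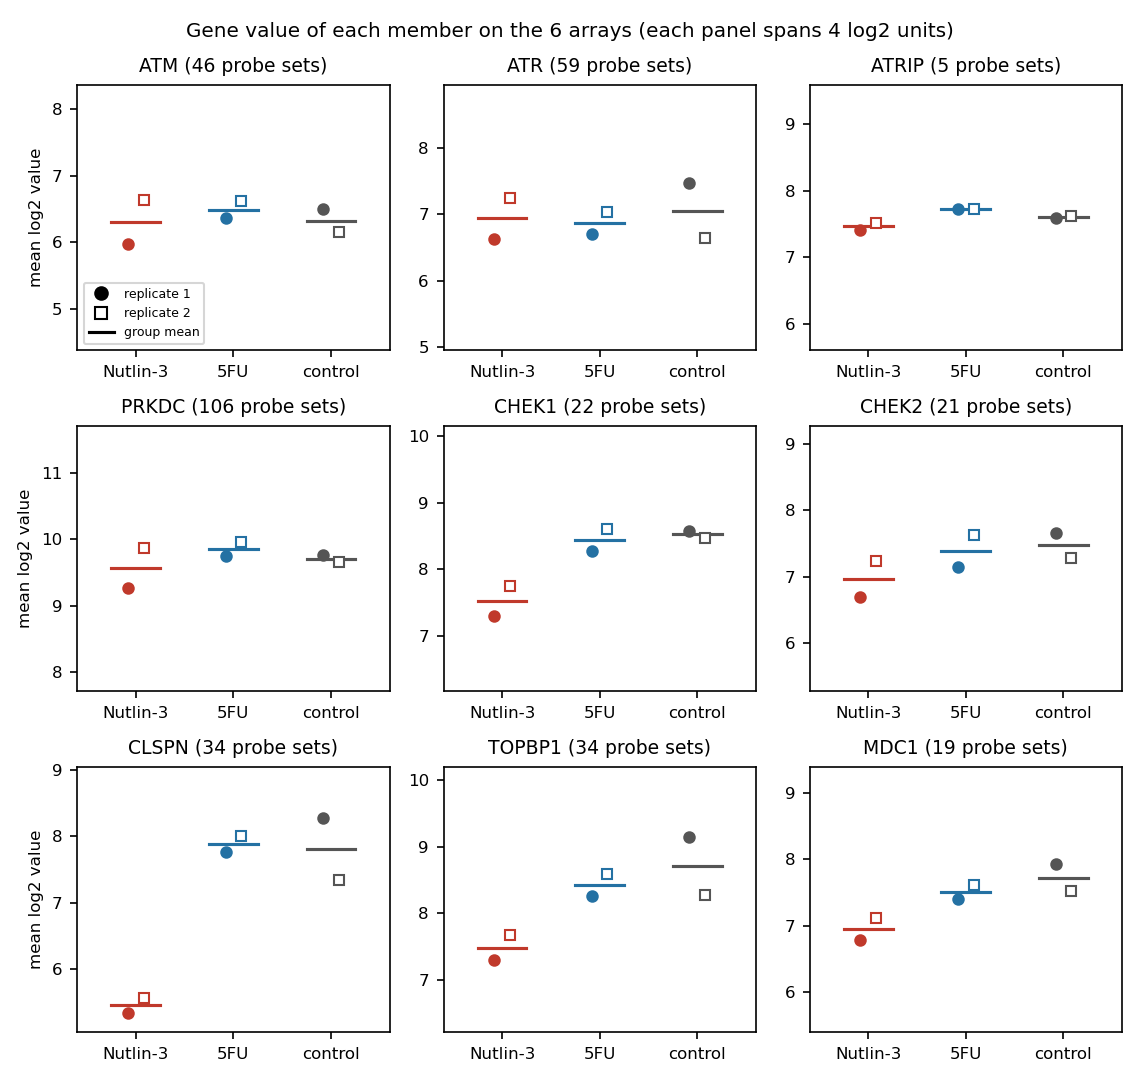
Log2 value (vertical axis) of each member on each of the 6 arrays, with points for arrays and bars for group means, Nutlin-3 and 5FU left of control. CLSPN lies at 5.35 and 5.57 in Nutlin-3, below its 4 other arrays at 7.35 to 8.28, while ATM, ATR and PRKDC overlap between the groups.

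The promoter windows of 4 members are printed because these genes show the range of values with Nutlin-3: CLSPN, which was called, TOPBP1 and CHEK1, which lay lower without being called, and ATM, the gene singled out by the study, which lay near control. TOPBP1 was added after its motif match was seen. Sequences are from RefSeq, build GRCh38.p14, and run 5′ to 3′ on the gene's strand from 250 bases before the start site to 50 after it. The CLSPN window is chr1:35769929-35770228 on the minus strand, TOPBP1 is chr3:133661892-133662191 on the minus strand, CHEK1 is the first of 3 starts at chr11:125625974-125626273 on the plus strand, and ATM is the first of 2 starts at chr11:108222817-108223116 on the plus strand. Capitals mark matches, on either strand, to the E2F-like words TTTCCCGC, TTTCGCGC, TTTGCCGC and TTTGGCGC, to the CCAAT box CCAAT, and to TTTGAA, a word like the cell cycle homology region.
CLSPN: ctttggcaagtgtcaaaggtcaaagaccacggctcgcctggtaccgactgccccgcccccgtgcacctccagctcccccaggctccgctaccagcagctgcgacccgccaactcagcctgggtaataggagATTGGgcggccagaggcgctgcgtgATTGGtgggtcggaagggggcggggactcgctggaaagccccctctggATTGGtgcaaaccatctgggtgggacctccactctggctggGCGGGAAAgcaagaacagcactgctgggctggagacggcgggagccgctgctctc
TOPBP1: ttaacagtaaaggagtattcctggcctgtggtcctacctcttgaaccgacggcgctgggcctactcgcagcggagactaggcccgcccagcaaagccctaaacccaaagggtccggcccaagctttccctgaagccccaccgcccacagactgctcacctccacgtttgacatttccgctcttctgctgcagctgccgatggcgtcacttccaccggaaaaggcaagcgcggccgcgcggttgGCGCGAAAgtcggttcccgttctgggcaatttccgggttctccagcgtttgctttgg
CHEK1: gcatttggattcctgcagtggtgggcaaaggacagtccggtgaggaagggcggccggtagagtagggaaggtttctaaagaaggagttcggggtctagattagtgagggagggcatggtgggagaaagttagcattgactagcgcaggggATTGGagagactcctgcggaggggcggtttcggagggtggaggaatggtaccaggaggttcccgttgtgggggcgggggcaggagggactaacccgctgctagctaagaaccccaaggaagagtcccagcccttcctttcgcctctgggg
ATM: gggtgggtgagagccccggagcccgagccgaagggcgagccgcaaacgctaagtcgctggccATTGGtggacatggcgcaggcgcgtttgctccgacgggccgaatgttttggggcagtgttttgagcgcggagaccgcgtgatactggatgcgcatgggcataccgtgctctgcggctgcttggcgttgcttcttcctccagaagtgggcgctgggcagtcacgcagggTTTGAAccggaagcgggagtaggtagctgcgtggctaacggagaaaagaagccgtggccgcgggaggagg

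Positions give the first base of a match as printed. The CLSPN window held 1 E2F-like word, GCGGGAAA as printed, that began at -5 and ran across the start site. It also held 3 CCAAT boxes on the opposite strand at -119, -94 and -46. The TOPBP1 window held 1 E2F-like word, GCGCGAAA as printed, that began at -7 and ended on the start site, and no CCAAT. The printed CHEK1 window held 1 CCAAT box at -100, and none of the 3 CHEK1 windows held an E2F-like word. The printed ATM window held a CCAAT box at -188 and TTTGAA at -20. Of the 35116 windows in the table, 3.31% held an E2F-like word, 34.6% CCAAT and 15.2% TTTGAA. Among the 8 members with a window, CLSPN and TOPBP1 were the ones with an E2F-like word. No PRKDC window was read, so nothing is said of its promoter. None of the words overlapped in the windows of these 4 genes, and a match is a description of letters, not a bound site.

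Of the apical kinases, ATM, the kinase of the double-strand break response, had a log2 value of 5.97 and 6.63 in Nutlin-3, 6.36 and 6.62 in 5FU, and 6.49 and 6.15 in control. The groups overlapped, and the 2 Nutlin-3 arrays held both the lowest and the highest of the 6 values. The difference was -0.02 for Nutlin-3 against control (95% interval -0.60 to 0.56, adjusted p = 0.993), 0.16 for 5FU against control (-0.41 to 0.74, adjusted p = 0.929) and -0.18 for Nutlin-3 against 5FU (-0.76 to 0.39, adjusted p = 0.787). At this number of arrays a change of ATM RNA of up to 0.56 on the log2 scale in either direction lay inside the interval for Nutlin-3. The ATM level was also modest, near the means of the blood (6.21 to 6.59) and fibroblast (6.28 to 6.47) marker lists. Of its 61 probe sets, 15 did not pass the filter. Whether this level hides a change in ATM RNA was not tested. Of 46 used ATM probe sets, 21 were below 0 for Nutlin-3 against control, against 47.4% of all probe sets, and the median was 0.02. The lowest was probe set 3347719, with 3.21 and 5.87 in Nutlin-3, 5.75 and 6.14 in 5FU, and 6.44 and 5.39 in control, a difference of -1.37 that came from 1 Nutlin-3 array. The highest was probe set 3347742, with 5.19 and 5.69 in Nutlin-3, 4.69 and 5.68 in 5FU, and 3.93 and 4.32 in control. Both Nutlin-3 arrays lay above both control arrays by a mean of 1.31 (adjusted p = 0.553). Both control values lay below the filter value of 4.73, so this probe set passed through the drug groups. Its direction is therefore not support for a rise.

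ATR, the kinase of stalled forks, had 6.64 and 7.25 in Nutlin-3, 6.70 and 7.03 in 5FU, and 7.47 and 6.64 in control. The groups overlapped, with a Nutlin-3 array and a control array lowest at nearly the same value and the other control array highest, and the differences were -0.11 for Nutlin-3 against control (-0.85 to 0.63, adjusted p = 0.965), -0.19 when 5FU was set against control (adjusted p = 0.94) and 0.08 for Nutlin-3 against 5FU (adjusted p = 0.937). Of 59 used ATR probe sets, 37 were below 0 for Nutlin-3 against control and 46 for 5FU against control, where all probe sets had 47.4% and 51.1% below 0. PRKDC, the DNA-PK catalytic subunit, had 9.27 and 9.87 in Nutlin-3, 9.76 and 9.96 in 5FU, and 9.76 and 9.66 in control. The groups overlapped, with 1 Nutlin-3 array below the rest, and the difference was -0.14 for Nutlin-3 against control (-0.63 to 0.36, adjusted p = 0.927) and 0.15 for 5FU against control (adjusted p = 0.925). Its 106 used probe sets had a median of -0.11 for Nutlin-3 against control and 0.10 for 5FU against control. ATRIP, which binds RPA-coated DNA and carries ATR, had 7.41 and 7.52 in Nutlin-3, 7.72 and 7.73 in 5FU, and 7.59 and 7.61 in control. The 3 groups did not overlap, but the differences were small: -0.14 for Nutlin-3 against control (-0.44 to 0.16, adjusted p = 0.838), 0.12 for 5FU against control (adjusted p = 0.869) and -0.26 for Nutlin-3 against 5FU (adjusted p = 0.445). ATRIP rests on 5 probe sets, because 33 others were annotated to both ATRIP and TREX1.

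The 3 other kinases of the same family, MTOR, SMG1 and TRRAP, gave 0 calls in any comparison. For Nutlin-3 against control MTOR differed by -0.05 (adjusted p = 0.976), SMG1 by -0.16 (adjusted p = 0.895) and TRRAP by -0.18 (adjusted p = 0.884). Their intervals, like those of ATM, ATR and PRKDC, held 0 on both drugs. For 5FU against control MTOR differed by -0.31, SMG1 by 0.17 and TRRAP by 0.01, and TRRAP changed sign under other summaries. For Nutlin-3 against 5FU the values were 0.26, -0.33 and -0.19 in the same order of genes.

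**Figure D2:**
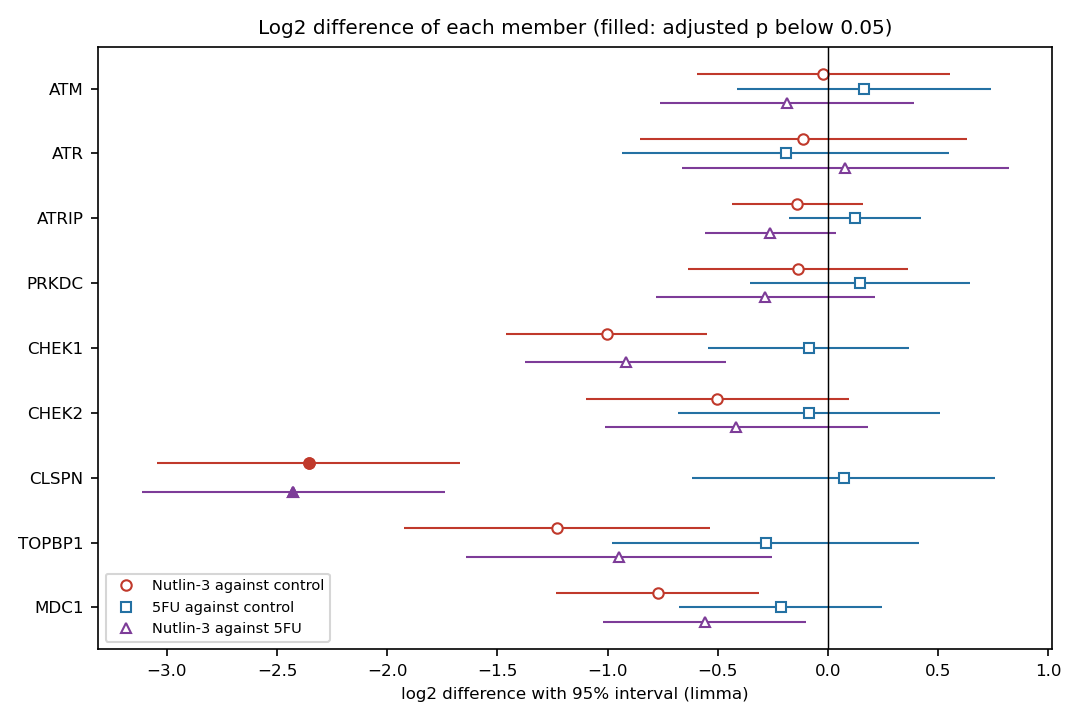
Log2 difference of each member (horizontal axis) with its 95% interval, for Nutlin-3 against control, 5FU against control and Nutlin-3 against 5FU, filled where the adjusted p was below 0.05. CLSPN stands at -2.36 for Nutlin-3 against control and at 0.07 for 5FU against control, while the intervals of ATM, ATR, ATRIP, PRKDC and CHEK2 hold 0 in every comparison.

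Of the mediators, CLSPN, the adaptor that brings CHEK1 to ATR at forks, had 5.35 and 5.57 in Nutlin-3, 7.76 and 8.01 in 5FU, and 8.28 and 7.35 in control. Both Nutlin-3 arrays lay below the 4 others by at least 1 log2 unit, and the 5FU arrays lay between the 2 control arrays. CLSPN fell with Nutlin-3, 5.12-fold lower than control (-2.36, interval -3.04 to -1.67, adjusted p = 0.0183) and 5.38-fold lower than with 5FU (-2.43, -3.11 to -1.74, adjusted p = 0.0287). For 5FU against control the difference was 0.07 (-0.62 to 0.76, adjusted p = 0.981). The call against control did not hold without control replicate 1 (-1.89, adjusted p = 0.0553) or without Nutlin-3 replicate 1 (-2.25, adjusted p = 0.0861). The call against 5FU did not hold without Nutlin-3 replicate 1 (-2.32, adjusted p = 0.127), Nutlin-3 replicate 2 (-2.54, adjusted p = 0.0510), 5FU replicate 1 (-2.55, adjusted p = 0.0866) or 5FU replicate 2 (-2.30, adjusted p = 0.182).

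The CLSPN difference was shared by its probe sets. All 34 used CLSPN probe sets were below 0 for Nutlin-3 against control, with a median of -2.37, and in 32 both Nutlin-3 arrays lay below both control arrays, against 15% of all probe sets. At an unadjusted p below 0.05 there were 32 lower, against 3.26% of all probe sets. None was called after adjustment over 705699 probe sets, among which 0 were called (0%), and the lowest adjusted p of a CLSPN probe set was 0.0615. Against 5FU all 34 were again below 0, with a median of -2.51, while 5FU against control had 17 below 0 and a median of 0.03. The largest difference was in probe set 2406468, with 3.38 and 3.05 in Nutlin-3, 7.49 and 8.01 in 5FU, and 7.86 and 6.51 in control, a fall of the mean by 3.97 against control. The smallest was in probe set 2406473, with 6.06 and 5.51 in Nutlin-3, 6.06 and 6.18 in 5FU, and 6.77 and 5.81 in control, where the groups overlapped and the difference was -0.50. Another, probe set 2406424, was low with both drugs, with 4.21 and 4.48 in Nutlin-3, 4.58 and 4.29 in 5FU, and 6.21 and 5.65 in control. It differed by -1.58 for Nutlin-3 and by -1.49 for 5FU against control (adjusted p = 0.212 and 0.366). It was picked out after its values were seen, as the lowest CLSPN probe set of the 5FU comparison. All its drug values lay below the filter value of 4.73, so it passed through control alone. In 12 of the 34 probe sets the Nutlin-3 mean lay below the filter value of 4.73, against 1 for the 5FU mean and 0 for the control mean. Near that value an array difference may understate a change in RNA. The filter took the mean of all 6 arrays, so those 12 passed through the groups where CLSPN was higher. Their direction is therefore not separate support for the fall. With all 38 CLSPN probe sets, unfiltered, the gene differed by -2.13 against control and -2.19 against 5FU. Among the used probe sets, the median difference against control was -2.34 in the 17 that were brighter in 5FU and -2.40 in the 17 that were dimmer.

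**Figure D3:**
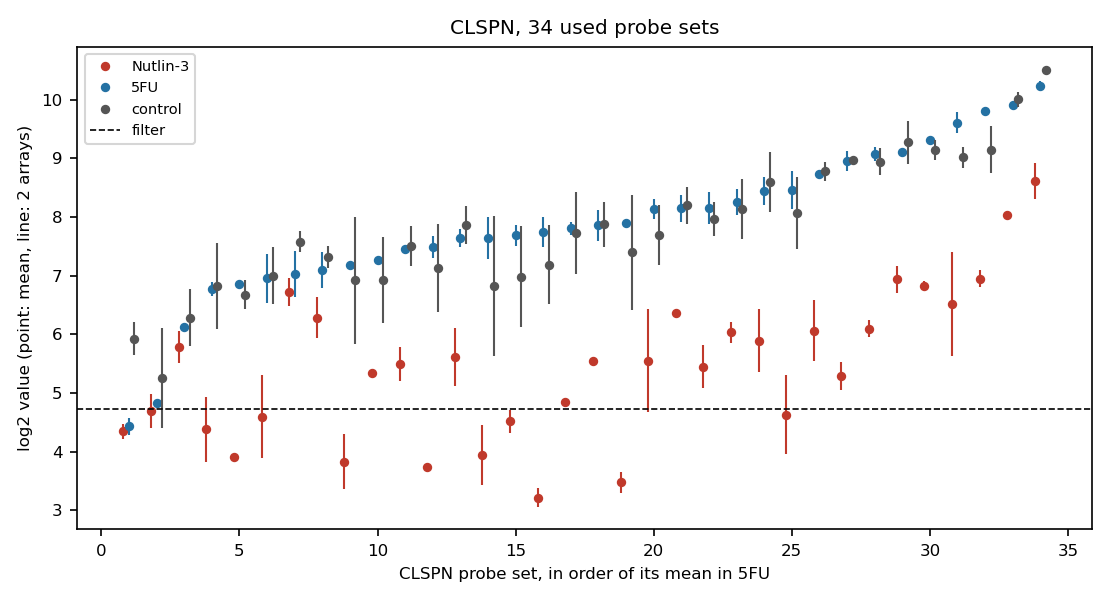
Log2 value (vertical axis) of the 34 used CLSPN probe sets on the 6 arrays, as the group mean (points) and both arrays (ends of the bars), ordered along the horizontal axis by the mean in 5FU, with the filter value of 4.73 as a dashed line. Nutlin-3 points run below 5FU and control in nearly all probe sets, and in probe set 2406424, leftmost, the 5FU arrays (4.58 and 4.29) are low as well.

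TOPBP1, the activator of ATR, had 7.30 and 7.66 in Nutlin-3, 8.26 and 8.59 in 5FU, and 9.15 and 8.27 in control. Both Nutlin-3 arrays lay below the 4 others, and 1 control array stood well above the other. The difference was -1.23 for Nutlin-3 against control (-1.92 to -0.53, 2.34-fold, adjusted p = 0.147), -0.28 for 5FU against control (-0.98 to 0.41, adjusted p = 0.875) and -0.95 for Nutlin-3 against 5FU (-1.64 to -0.25, adjusted p = 0.243). Of its 34 used probe sets, 33 were below 0 for Nutlin-3 against control, against 47.4% of all probe sets, and the median was -1.22. At an unadjusted p below 0.05, 29 were lower, against 3.26% of all probe sets. In 2 of the 34 the Nutlin-3 mean lay below the filter value, so those 2 passed through the other groups. The probe set above 0 was 2696005, with 9.48 and 9.24 in Nutlin-3, 9.32 and 8.91 in 5FU, and 9.03 and 9.10 in control.

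MDC1, the scaffold on phosphorylated H2AX, had 6.79 and 7.12 in Nutlin-3, 7.41 and 7.62 in 5FU, and 7.93 and 7.52 in control. Again both Nutlin-3 arrays lay below the 4 others, by a smaller distance than for TOPBP1. The difference was -0.77 for Nutlin-3 against control (-1.23 to -0.31, 1.71-fold, adjusted p = 0.168), -0.21 for 5FU against control (adjusted p = 0.838) and -0.56 for Nutlin-3 against 5FU (-1.02 to -0.10, adjusted p = 0.289). All 19 used MDC1 probe sets were below 0 for Nutlin-3 against control, with a median of -0.78, against 47.4% of all probe sets below 0. In 17 of them both Nutlin-3 arrays lay below both control arrays, against 15% of all probe sets. In 1 of the 19 the Nutlin-3 mean lay below the filter value.

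Of the checkpoint kinases, CHEK1 had 7.30 and 7.74 in Nutlin-3, 8.27 and 8.60 in 5FU, and 8.58 and 8.47 in control. Both Nutlin-3 arrays lay below the 4 others, and the 5FU arrays lay on either side of the control pair. The difference was -1.003 for Nutlin-3 against control (-1.46 to -0.55, unadjusted p = 0.00124, adjusted p = 0.0742) and -0.92 for Nutlin-3 against 5FU (-1.37 to -0.46, adjusted p = 0.11), and neither was called. For 5FU against control it was -0.09 (-0.54 to 0.37, adjusted p = 0.963). CHEK1 was called lower against control when brighter probe sets alone made the gene value (-1.15, adjusted p = 0.0313) and when arrays were centred on their gene medians (-0.998, adjusted p = 0.0230), and against 5FU with the same centring (-0.89, adjusted p = 0.0487). Against control CHEK1 stayed uncalled with all probe sets (adjusted p = 0.0964), the median of its probe sets (0.122) or arrays centred on probe-set medians (0.123). It was also uncalled with a block for the replicate numbers (0.175). Leaving out 1 array, its difference from control ran from -1.22 to -0.78. Of 22 used CHEK1 probe sets, 20 were below 0 for Nutlin-3 against control, against 47.4% of all probe sets, and the median was -1.14. At an unadjusted p below 0.05, 16 were lower, against 3.26% of all probe sets. Probe set 3354802 ran the other way, with 7.04 and 5.59 in Nutlin-3, 7.21 and 7.32 in 5FU, and 5.32 and 6.12 in control, 0.60 above control with Nutlin-3 and 1.55 above it with 5FU (adjusted p = 0.942 and 0.647).

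CHEK2, the kinase below ATM, had 6.70 and 7.24 in Nutlin-3, 7.14 and 7.63 in 5FU, and 7.67 and 7.28 in control. The Nutlin-3 arrays lay just below the control pair and overlapped the 5FU arrays. The difference was -0.50 for Nutlin-3 against control (-1.10 to 0.10, 1.42-fold, adjusted p = 0.602), -0.09 for 5FU against control (adjusted p = 0.971) and -0.41 for Nutlin-3 against 5FU (adjusted p = 0.543). Of its 21 used probe sets, 17 were below 0 for Nutlin-3 against control, against 47.4% of all probe sets, and the median was -0.56. At an unadjusted p below 0.05, 1 was lower, against 3.26% of all probe sets. In 1 of the 21 the Nutlin-3 mean lay below the filter value. The difference between CHEK1 and CHEK2 was not tested, and the interval of CHEK2 held both 0 and the CHEK1 value of -1.003.

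**Figure D4:**
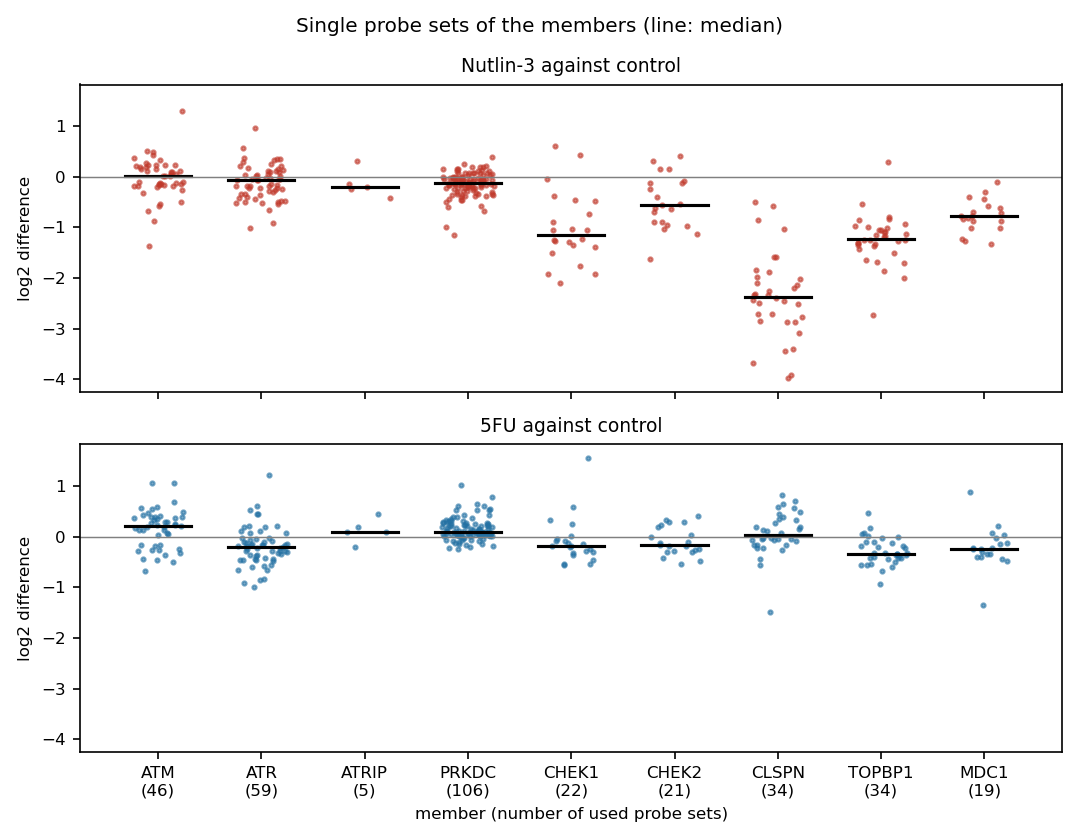
Log2 difference (vertical axis) of every used probe set of each member (points) with its median (bar), for Nutlin-3 against control (upper panel) and 5FU against control (lower panel). For Nutlin-3 against control the probe sets of ATM and ATR scatter around 0, those of CLSPN lie at -3.97 to -0.50, and those of TOPBP1 and MDC1 are almost all below 0.

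Between 5FU and control 0 of 9 members were called, against 0.448% of all genes, and 0 had an unadjusted p below 0.05, against 10.7% of all genes. The differences were below 0 for 5 members and above 0 for the other 4, where 49.7% of all genes were below 0. The groups did not overlap for 1 member, ATRIP, higher with 5FU, where 38% of all genes did not overlap in either direction and 20% were higher without overlap. Between Nutlin-3 and 5FU 1 of 9 members was called lower, against 0.572% of all genes, and 5 of 9 had both Nutlin-3 arrays below both 5FU arrays, against 25.2% of all genes. At an unadjusted p below 0.05 there were 4 lower, against 9.45% of all genes, and 8 of 9 were below 0, against 50.8% of all genes. No member probe set was called between Nutlin-3 and 5FU, where 0.00142% of all probe sets were called. Over the members' 346 used probe sets, 266 were below 0 between Nutlin-3 and control, 170 between 5FU and control and 271 between Nutlin-3 and 5FU, where all probe sets had 47.4%, 51.1% and 47% below 0.

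Single probe sets were also set against their own gene, as the probe set minus the gene's value on the same array. No departure of the 263542 was called in any comparison (0%), and hence none of the members' 346. At an unadjusted p below 0.05 the members had 32 between Nutlin-3 and control, 17 between 5FU and control and 33 between Nutlin-3 and 5FU, where all probe sets had 5.04%, 5.34% and 6.62%. CLSPN held 12, 2 and 14 of these, led by probe sets 2406473 and 2406468, and CHEK1 held 9, 2 and 5. The lowest adjusted p of a member's departure was 0.621, 0.648 and 0.346 in the same order.

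The replicates of the members mostly differed in the same direction within a group. Replicate 2 was the higher array in 9 of 9 members in Nutlin-3 and in 9 of 9 in 5FU, while replicate 1 was the higher array in 8 of 9 in control. Over all genes replicate 1 was the higher in 40.5% with Nutlin-3, 39.5% with 5FU and 52.8% in control. The gap between the 2 arrays of a group ran over the members at 0.102 to 0.66 in Nutlin-3, 0.0085 to 0.49 in 5FU and 0.025 to 0.93 in control, smallest for ATRIP in each group. Over all genes the median absolute gap was 0.206, 0.165 and 0.195 and the 90th percentile 0.504, 0.408 and 0.584, in the same order of groups. What moved the replicates together was not tested.

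ATM begins head to head with NPAT, a regulator of histone gene transcription, with starts 429 bases apart on chromosome 11 of GRCh38.p14, ATM at 108223067 on the plus strand and NPAT at 108222638 on the minus strand. NPAT had 6.53 and 7.02 in Nutlin-3, 7.51 and 7.92 in 5FU, and 7.93 and 7.58 in control. Unlike for ATM, both Nutlin-3 arrays of NPAT lay below the 4 others, with a difference of -0.98 against control (-1.52 to -0.44, adjusted p = 0.136) and -0.93 against 5FU (adjusted p = 0.153). NPAT was not called, except against control with arrays centred on gene medians (-0.97, adjusted p = 0.0483), and the difference between NPAT and ATM was not tested. MCM4, a subunit of the replicative helicase that begins next to PRKDC, had 8.68 and 8.87 in Nutlin-3, 9.78 and 10.01 in 5FU, and 10.19 and 9.67 in control. Its Nutlin-3 arrays were the lowest as well, with a difference of -1.16 against control (-1.63 to -0.68, adjusted p = 0.053) and -1.12 against 5FU (adjusted p = 0.0795), where PRKDC differed by -0.14 and -0.28. MCM4 was called against control with brighter probe sets (adjusted p = 0.0266), with at least 4 probe sets per gene (adjusted p = 0.0458), with arrays centred on gene medians (adjusted p = 0.0148) and without control replicate 2 (-1.42, adjusted p = 0.0461). Against 5FU it was called with brighter probe sets (adjusted p = 0.0408) and with the same centring (adjusted p = 0.0272). TREX1, beside ATRIP, had no value of its own.

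Genes that work with the members were read from lists of the pathway, beside 0.858% of all genes called lower with Nutlin-3 and 0.448% called in either direction with 5FU. These lists too were chosen with earlier results known, so their counts are descriptive. Of 12 sensors and ATR activators (the RPA and 9-1-1 clamp subunits, RAD17, ETAA1, TIMELESS, TIPIN, WDHD1 and RHNO1), 1 was called lower with Nutlin-3 and 0 with 5FU, with medians of -0.62 and 0.03. The one was WDHD1, a replication fork protein, with 6.63 and 7.26 in Nutlin-3, 8.11 and 8.54 in 5FU, and 8.74 and 8.38 in control, a fall of 3.06-fold against control (adjusted p = 0.0388). Of 14 break sensors and chromatin mediators, 1 was called lower with Nutlin-3 and 0 with 5FU, with medians of -0.40 and 0.12. The one was BRCA1, a repair factor phosphorylated by ATM and ATR, with 5.98 and 6.52 in Nutlin-3, 7.09 and 7.45 in 5FU, and 7.90 and 7.62 in control, a fall of 2.85-fold against control (adjusted p = 0.0309). In both lists 0 genes were called between Nutlin-3 and 5FU, although WDHD1 and BRCA1 were called there with brighter probe sets (adjusted p = 0.0312 and 0.0484) and with arrays centred on gene medians (0.0253 and 0.0487). The calls of WDHD1 and BRCA1 were lost when all probe sets made the gene value (adjusted p = 0.0590 and 0.0522). They were also lost without control replicate 1 (adjusted p = 0.221 and 0.180), control replicate 2 (0.0878 and 0.0799) or Nutlin-3 replicate 1 (0.141 and 0.123).

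Of 9 measured effectors of the checkpoint kinases, 3 were called lower with Nutlin-3 and 0 with 5FU, with medians of -0.70 and 0.01. CDC25A, the phosphatase that CHEK1 and CHEK2 mark for destruction, had 6.15 and 6.41 in Nutlin-3, 8.65 and 8.77 in 5FU, and 8.55 and 8.03 in control, and was 4.02-fold lower than control (adjusted p = 0.0099) and 5.37-fold lower than with 5FU (adjusted p = 0.00944). WEE1, the kinase that opposes CDC25, was 2.42-fold lower than control (-1.27, adjusted p = 0.0236), with 6.39 and 6.74 in Nutlin-3, 7.51 and 7.79 in 5FU, and 7.86 and 7.82 in control. CDK2, the cyclin-dependent kinase that CDC25A activates, had 8.32 and 8.62 in Nutlin-3, 9.97 and 10.25 in 5FU, and 9.64 and 9.68 in control. CDK2 was 2.29-fold lower than control (adjusted p = 0.0246) and 3.11-fold lower than with 5FU (adjusted p = 0.0164). CDC25A and CDK2 promote S phase, whereas WEE1 restrains entry into mitosis. Against control, the calls of WEE1 and CDK2 were lost without control replicate 1 (adjusted p = 0.142 and 0.135), control replicate 2 (0.0858 and 0.0968) or Nutlin-3 replicate 1 (0.113 and 0.128), and that of CDC25A without control replicate 1 (0.0553) or Nutlin-3 replicate 1 (0.0594). Against 5FU, the calls of CDC25A and CDK2 were lost without Nutlin-3 replicate 1 (0.0528 and 0.0813) or 5FU replicate 2 (0.0695 and 0.141), and that of CDK2 also without 5FU replicate 1 (0.0618). WEE1 was called against 5FU with brighter probe sets (adjusted p = 0.0200), at least 4 probe sets per gene (0.0473) or arrays centred on gene medians (0.0183).

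Of 15 genes that assemble or regulate these kinases, 3 were called lower with Nutlin-3, with a median of -0.32, and with 5FU 1 was called lower and 1 higher, with a median of -0.11. DTL, an adaptor of the CUL4 ubiquitin ligase, had 6.33 and 6.65 in Nutlin-3, 9.36 and 9.51 in 5FU, and 9.24 and 8.68 in control, 5.53-fold lower than control (adjusted p = 0.00788) and 7.68-fold lower than with 5FU (adjusted p = 0.00604). PLK1, the mitotic kinase that marks claspin for destruction, had 8.07 and 8.34 in Nutlin-3, 8.09 and 8.24 in 5FU, and 9.54 and 9.62 in control, and fell with both drugs, 2.59-fold with Nutlin-3 (adjusted p = 0.0133) and 2.67-fold with 5FU (adjusted p = 0.026). TTI1, a partner of TELO2 in folding kinases of the ATM family, was 1.98-fold lower with Nutlin-3 than control (-0.99, adjusted p = 0.0451). PPM1D, the p53-induced phosphatase that acts on ATM and CHEK1, had 9.27 and 9.51 in Nutlin-3, 9.82 and 10.04 in 5FU, and 8.64 and 8.59 in control, and rose 2.49-fold with 5FU (adjusted p = 0.0283), while its difference with Nutlin-3 was 0.77 (adjusted p = 0.0797), called with arrays centred on gene medians (0.78, adjusted p = 0.0352). All 4 arrays of the drugs lay below control for PLK1 and above it for PPM1D. The 5FU calls were lost without any 1 of the 2 control or 2 5FU arrays (adjusted p = 0.104 to 0.203 for PLK1 and 0.116 to 0.247 for PPM1D). The Nutlin-3 call of PLK1 was lost without control replicate 1 (adjusted p = 0.0760), control replicate 2 (0.0514) or Nutlin-3 replicate 1 (0.0716), that of DTL without control replicate 1 (0.0553), and that of DTL against 5FU without 5FU replicate 2 (0.0551). The TTI1 call was lost without any 1 of the 6 arrays (adjusted p = 0.0682 to 0.232), and against 5FU TTI1 was called with arrays centred on gene medians (adjusted p = 0.0478).

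**Figure D5:**
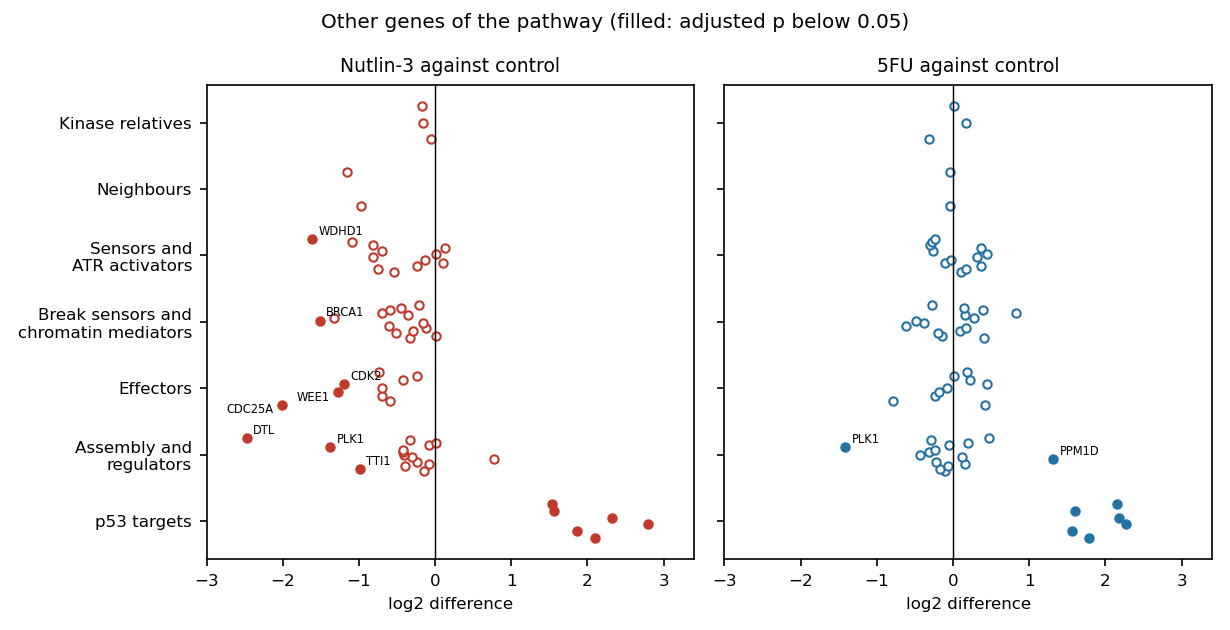
Log2 difference (horizontal axis) of each measured gene of the pathway lists, for Nutlin-3 against control (left) and 5FU against control (right), with called genes filled and, outside the p53 targets, named. DTL and CDC25A lie farthest left for Nutlin-3, at -2.47 and -2.01, and PLK1 is the filled gene left of 0 for 5FU, at -1.42.

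The genes with the most similar course over the 6 arrays, each gene centred on its own mean, were found among 15990 other genes by Euclidean distance. For ATM these were ANAPC16 at 0.091, FNDC3A at 0.105 and MRPL39 at 0.120. For CHEK1 these were LRR1 at 0.137, PARP2 at 0.147 and TTI1 at 0.158. For CLSPN these were ORC1 at 0.429, EXO1 at 0.446 and CDC6 at 0.470. Distances grow with the size of a gene's own range, so they do not compare between members, and 6 arrays of 3 groups leave few ways for genes to differ.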

How the data were processed

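RNA of 6 HCT116 samples was measured on Affymetrix Human Exon 1.0 ST arrays. The values the authors deposited are on a log2 scale, 1 per probe set, and the submitters' processing notes name RMA for them. The version and settings of RMA and the scan days were not given in the sources used. The labels name PicoPure for RNA isolation and the design text RNeasy. No value was missing among 1411399 probe sets (0 empty cells), and the medians of the arrays were 4.73 to 4.78. The number of arrays limits the precision.

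Gene symbols came from the platform annotation, which gave 1 symbol to 357604, several to 15322 and none to 1038473. Of 19560 symbols, 16472 were current in the RefSeq table of GRCh38.p14, 2966 were updated and 122 kept. A gene's value was the mean of its probe sets whose mean over 6 arrays was above 4.73, the median over all probe sets, and at least 2 had to pass. The 35 member probe sets left out were 15 of ATM, 6 of ATR, 2 of CHEK1, 6 of CHEK2, 4 of CLSPN and 2 of TOPBP1. limma 3.58.1 (R 4.3.3, lmFit and eBayes) fitted the 3 groups in 1 model with 3 residual degrees of freedom, and Benjamini-Hochberg adjustment ran over all 17841 genes, 705699 probe sets, or 263542 probe sets of the 15991 genes with at least 4. The model was also run on simulated data with planted changes and noise drawn independently for each array. That noise lacked the shared deviations between arrays described below, so the run does not show how calls behave under them.

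Members and pathway lists were chosen with earlier results of these data known. The text names all members, neighbours and kinase relatives, up to 4 called genes per list and comparison, and some of each member's highest and lowest probe sets. Promoter words were searched on both strands of the RefSeq windows. Alternatives varied the probe sets used, their summary, scaling, variances, arrays fitted and a replicate block. Deviations of same-numbered arrays from their group means correlated at 0.634 between Nutlin-3 and 5FU, -0.565 between Nutlin-3 and control and -0.525 between 5FU and control, so same-numbered arrays moved together between the drugs and apart between drug and control. The numbers were not taken to pair the arrays over the 3 groups, because the labels do not say whether they were meant to. The correlations come from these same arrays.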

Additional observations from a re-analysis of the deposited data

How the results depend on the processing

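With 2 arrays per group, counts of called genes moved with most settings. Of the recomputed member differences 374 kept direction and side of the threshold, 3 became called, 9 lost a call and 19 changed sign. Some settings could not change a member's difference: at least 4 probe sets per gene, other variances, only the 2 groups compared, and the replicate block. Leaving out an array of the group not compared could not change it either. The number that kept direction therefore overstates how stable the signs were. For Nutlin-3 against control 217 genes became 380 with probe sets above the upper quartile, 381 with arrays centred on gene medians, 127 centred on probe-set medians (added after seeing the data) and 5 to 149 leaving out 1 array. Member calls, 1, became 2 with either of the first pair of settings and 0 to 1 leaving out 1 array. For 5FU against control 80 genes became 151, 177 and 14 under the same 3 settings, 39 with the median of probe sets and 1 to 63 leaving out 1 array. For Nutlin-3 against 5FU 113 genes became 234, 297 and 37, 69 with all probe sets and 69 with the median of probe sets, and 3 to 104 leaving out 1 array. Member calls, 1, became 2 with gene-median centring, 0 with probe-set centring (CLSPN adjusted p = 0.0583) and 0 to 1 leaving out 1 array.

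With the replicate block, for numbers not taken to pair the arrays, 2, 1 and 0 genes and 0 members were called in the 3 comparisons in that order, and the CLSPN adjusted p was 0.101 against control and 0.152 against 5FU. Numbers were also crossed between control and drug arrays, a setting added after seeing the data. Then 1788 of 17841 genes were called for Nutlin-3, among them 5 of the 9 members, and 1882 for 5FU. The crossing was drawn from the deviations of these same arrays and takes out spread seen there. These counts therefore lend no weight to any call.

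ATM for Nutlin-3 against control was 0.0065 with all probe sets and 0.091 with upper-quartile probe sets. TRRAP for 5FU against control was -0.0047 with upper-quartile probe sets, -0.10 with the median and -0.012 with gene-median centring. Leaving out 1 array, sign changes for Nutlin-3 against control came with ATM (-0.35 to 0.31), ATR (-0.52 to 0.30), PRKDC (-0.44 to 0.16), MTOR (-0.28 to 0.17), SMG1 (-0.42 to 0.10) and TRRAP (-0.41 to 0.055). For 5FU against control they came with ATM (-0.0059 to 0.33), ATR (-0.60 to 0.22), CHEK1 (-0.25 to 0.076), CHEK2 (-0.33 to 0.16), CLSPN (-0.39 to 0.54), TOPBP1 (-0.72 to 0.16), MCM4 (-0.30 to 0.23), NPAT (-0.25 to 0.16) and TRRAP (-0.22 to 0.24). For Nutlin-3 against 5FU they came with ATM (-0.52 to 0.15), ATR (-0.23 to 0.39), PRKDC (-0.58 to 0.017) and PLK1 (-0.10 to 0.18). The cause of these moves was not tested.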

Other observations

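Probe sets annotated to 2 genes were left out of the gene values. The 30 above the filter that were annotated to both ATM and NPAT had mean log2 values of 6.12 and 6.95 in Nutlin-3, 6.50 and 6.77 in 5FU, and 6.59 and 6.27 in control. The Nutlin-3 arrays of this set spanned all others, as those of ATM did. The 32 above the filter that were annotated to both ATRIP and TREX1 had 7.08 and 7.18 in Nutlin-3, 7.50 and 7.46 in 5FU, and 7.65 and 7.38 in control. In that set both Nutlin-3 arrays were the lowest, as they were for the 5 probe sets of ATRIP alone. Signal of either gene of a pair cannot be told apart in such probe sets.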
